A study of Mus musculus with 8 samples.

Results

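The Notch receptors, ligands and HES/HEY target genes comprised 10 of the 21899 genes in the deposited count table, taken by exact gene symbol: the receptors Notch1, Notch2 and Notch3, the ligands Jag1, Jag2 and Dll1, and the targets Hes1, Hey1, Hey2 and Heyl. Each symbol matched 1 row. The cells were mesenchymal stem cells of mouse femoral bone marrow, stromal progenitors that can form bone, fat and cartilage; the labels name no strain, sex, age or passage. The EA group received 10 µM ellagic acid, a plant polyphenol, and the Control group an equal dose of the solvent DMSO, and RNA was taken after 48 h in both. Each group had 4 poly(A) libraries, with no label that ties them to separate animals or cultures; the p-values therefore reflect how much these libraries vary, and that variation may be technical.

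Notch receptors are membrane proteins that are activated by ligands of the Jagged and Delta-like families on a neighbouring cell. Ligand binding lets ADAM proteases and then gamma-secretase cut the receptor, and the freed intracellular domain enters the nucleus, binds the DNA-binding protein RBPJ and recruits Mastermind coactivators to genes such as those of the HES and HEY repressors. In marrow stroma, Notch signalling is known for restraining the differentiation of progenitors into osteoblasts. These steps after synthesis of the receptor are not seen in RNA counts.

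Library totals ranged from 14112519 to 17390200 reads, and 11777 genes had enough reads for testing. A gene was called when its Benjamini-Hochberg adjusted p over all tested genes was below 0.05 in edgeR's quasi-likelihood test. Calls were common: 67.2% of tested genes were called, 33.1% higher and 34.2% lower in EA, and the CPM of the EA and Control libraries did not overlap in 60.6%. CPM is a count scaled to a common library size, here after TMM scaling, which is meant to correct for library composition. Whether it does so in these libraries was not tested. The TMM factors ran from 0.878 to 0.885 in EA and from 1.13 to 1.14 in Control. Scaling by library totals instead shifted the median log2 fold change of all genes by -0.36, and the share of called genes that were higher in EA was 21.2% in place of 49.2%; upper-quartile scaling shifted the median by -0.16.

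Of the stromal markers, 9 of 10 were tested and 7 were called higher and 1 lower in EA under TMM scaling. Their summed CPM by library totals was 18217 to 18938 in EA and 16081 to 18437 in Control. Most of it was Col1a2, with 9342 CPM by library totals in EA and 8920 in Control, and Col1a1, with 6567 in EA and 6354 in Control. On that scale Pdgfra had 557 in EA and 156 in Control, Cd44 411 in EA and 573 in Control, and Ly6a 10.4 in EA and 37.7 in Control. Thy1 had 7 reads in all EA libraries and 12 in all Control libraries. Endothelial markers, of a cell type that uses Notch heavily, summed to 1.55 to 2.56 CPM in EA and 2.71 to 4.86 in Control. Of these 8, 1 was tested and none called. Vwf had the most reads, 61 in EA and 100 in Control. Cdh5 had 18 reads in EA and 38 in Control, and Tek 13 in EA and 35 in Control. Kdr had 4 reads in EA and 14 in Control, and Emcn 2 in EA and 3 in Control. Erg had 0 reads in EA and 3 in Control. Pecam1 had 25 reads in EA and 24 in Control, and Tie1 7 in EA and 4 in Control. Leukocyte markers summed to 52.0 to 56.2 CPM in EA and 67.0 to 84.3 in Control. Of these markers, 3 of 8 were tested, 1 called higher and 1 lower. Most of the sum was Lyz2 and Cd14, which went opposite ways. Lyz2 had 2830 reads in EA and 2411 in Control, and Cd14 533 in EA and 2391 in Control. Cd68 had 58 reads in EA and 97 in Control, Ptprc 17 in EA and 16 in Control, and Csf1r 22 in EA and 23 in Control. Itgam and Tyrobp were each at 0 reads in EA and 1 in Control. Smooth muscle and pericyte markers summed to 4052 to 4520 CPM in EA and 1263 to 1415 in Control, with 3 of 8 called higher, 4 tested, and Kcnj8 at 0 in every library. No erythroid or B lymphoid marker of 6 was tested, and their sums were 0.283 to 2.59 CPM in EA and 0.452 to 2.40 in Control. The part of these cell types in the results that follow was not tested. In bulk RNA, fewer cells of a type and less RNA per cell cannot be told apart.

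The receptor genes Notch1 and Notch2 were higher in EA, each about 2-fold, and Notch3 was lower. The promoters of these genes are shown because Notch1 and Notch2 moved together and Notch3 the other way, and that of Lfng, which encodes a fringe glycosyltransferase acting on Notch, because it had the largest rise of the pathway genes tested. Each is the run of 250 bases before the transcription start, 5′ to 3′ on the gene's strand, from the RefSeq promoter table of build GRCm38.p6: chr2:26503823-26504072 on the minus strand for Notch1, chr3:98013288-98013537 on the plus strand for Notch2, chr17:32166891-32167140 on the minus strand for Notch3 and chr5:140607091-140607340 on the plus strand for Lfng. Capitals mark the RBPJ core motif TGGGAA or its reverse complement.
Notch1: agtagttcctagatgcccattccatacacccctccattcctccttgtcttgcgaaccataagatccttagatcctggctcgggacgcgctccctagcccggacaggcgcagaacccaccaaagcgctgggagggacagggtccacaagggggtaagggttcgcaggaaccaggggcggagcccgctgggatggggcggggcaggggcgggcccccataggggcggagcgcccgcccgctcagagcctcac
Notch2: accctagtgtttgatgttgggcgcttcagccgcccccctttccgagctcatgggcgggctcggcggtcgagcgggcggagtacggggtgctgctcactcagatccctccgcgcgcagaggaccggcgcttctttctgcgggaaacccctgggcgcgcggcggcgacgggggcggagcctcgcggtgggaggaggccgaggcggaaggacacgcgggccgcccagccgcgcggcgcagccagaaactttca
Notch3: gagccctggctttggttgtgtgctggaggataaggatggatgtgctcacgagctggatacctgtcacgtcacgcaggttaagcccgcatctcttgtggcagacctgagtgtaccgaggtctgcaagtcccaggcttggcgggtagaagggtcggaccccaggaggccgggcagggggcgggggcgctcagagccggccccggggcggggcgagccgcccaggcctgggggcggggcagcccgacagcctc
Lfng: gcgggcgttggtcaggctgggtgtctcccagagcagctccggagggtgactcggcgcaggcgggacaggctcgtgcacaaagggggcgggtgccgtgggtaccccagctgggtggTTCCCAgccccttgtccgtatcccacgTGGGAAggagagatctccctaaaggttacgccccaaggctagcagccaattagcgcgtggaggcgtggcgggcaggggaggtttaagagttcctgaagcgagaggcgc
The core motif was searched on both strands in windows of 300 bases (250 before and 50 after the start), and 25.6% of the 32851 windows in the table hold it. The Notch1, Notch2 and Notch3 windows had 0 matches and the Lfng window 2, the first bases of which lie 135 and 108 bases before the start. The match at 108 also has the longer form GTGGGAA, found in 6.38% of all windows and containing the core. Of the 10 genes, 7 had a promoter in the table; Hes1, Hey1 and Heyl were not matched. Jag1, Jag2 and Dll1 also had 0 core matches, and Hey2 had 2, both in the longer form. The pair in Hey2 includes a match that spans its start site, shown with 10 bases on each side (chr10:30842771-30842796, minus strand).
Hey2: ggctgcagcgTGGGAAagaacctcca
The N box CACNAG, to which HES proteins bind, was in 42.5% of all windows on either strand. Notch1 had 3 matches, Notch2 1 and Notch3 2. The Notch1 matches that begin 3 and 1 bases before the start overlap and lie on opposite strands, so they are not separate places. A match describes the letters of the window and not a site in use in these cells.

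Notch2 (ENSMUSG00000027878; chromosome 3, 97920843 to 98057677, plus strand, GRCm39 as in the deposited table) was the most expressed of the 10 genes. Its CPM was 588, 571, 626 and 542 in EA libraries 1 to 4, against 304, 278, 299 and 279 in Control libraries 1 to 4. Every EA library lay above every Control library. The means were 582 ± 35.0 in EA and 290 ± 13.5 in Control (SD, n = 4 each), a log2 fold change of 1.01 (SE 0.06; 2.01-fold; adjusted p = 2.5e-12, edgeR quasi-likelihood test). By library totals the log2 fold change was 0.64 and the call stood.

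Notch1 (ENSMUSG00000026923; chromosome 2, 26347915 to 26406675, minus strand) is the receptor best known from T cell development. It had 93.3, 93.9, 98.4 and 96.4 CPM in EA and 48.3, 42.1, 45.1 and 43.9 CPM in Control. The libraries within each group lay close together and the groups were far apart. Means were 95.5 ± 2.36 CPM in EA and 44.9 ± 2.60 in Control (SD, n = 4 each), with a log2 fold change of 1.09 (SE 0.06; 2.13-fold; adjusted p = 3.7e-12, edgeR). The change was 0.73 by library totals, also called.

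Notch3 (ENSMUSG00000038146; chromosome 17, 32339794 to 32385826, minus strand), the receptor characteristic of vascular smooth muscle cells and pericytes, was scarce and moved the other way. It had 1.93, 2.06, 2.66 and 1.78 CPM in EA and 4.13, 3.25, 4.18 and 3.84 CPM in Control. The highest EA library stayed below the lowest Control library. Means were 2.11 ± 0.389 CPM in EA and 3.85 ± 0.428 in Control (SD, n = 4 each), a log2 fold change of -0.86 (SE 0.20; 1.81-fold lower in EA; adjusted p = 0.00097, edgeR). By library totals it was -1.22. In the same libraries the summed markers of smooth muscle cells and pericytes were higher in EA, as given above. Most of that sum was Acta2, with 3513 CPM by library totals in EA and 1094 in Control, and Cspg4, with 757 in EA and 206 in Control. Mcam had 607 reads in EA and 249 in Control, Cnn1 46 in EA and 7 in Control, and Rgs5 17 in EA and 7 in Control. Des had 67 reads in EA and 82 in Control, and Myh11 12 in EA and 13 in Control.

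Values per gene length allow levels to be set side by side between genes. On the authors' FPKM scale, which uses library totals, Notch2 stood at 47.6 ± 3.01 in EA and 30.5 ± 1.48 in Control, Notch1 at 5.92 ± 0.151 in EA and 3.57 ± 0.204 in Control, and Notch3 at 0.230 ± 0.0431 in EA and 0.539 ± 0.0606 in Control (SD, n = 4 each). Summed over Notch1 to Notch4, receptor FPKM was 54.0 ± 3.15 in EA and 34.7 ± 1.72 in Control. Notch2 gave 88.1% ± 0.502 of it in EA and 87.8% ± 0.366 in Control. Notch1 gave 10.97% ± 0.559 in EA and 10.3% ± 0.235 in Control. The Notch3 share was 0.423% ± 0.0553 in EA and 1.55% ± 0.121 in Control.

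A ratio of genes within a library is free of library scaling. The Notch1 to Notch2 FPKM ratio was 0.119 to 0.135 in EA and 0.114 to 0.121 in Control, and these ranges overlapped. The ratio of Notch3 to Notch2 spanned 0.00437 to 0.00567 in EA and 0.0156 to 0.0186 in Control libraries, 3.68-fold lower in EA with no overlap. Of the 5 genes plotted against Notch2, Rbpj and Hes1 differed most between groups, Rbpj lower and Hes1 higher in EA.

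**Figure D1:**
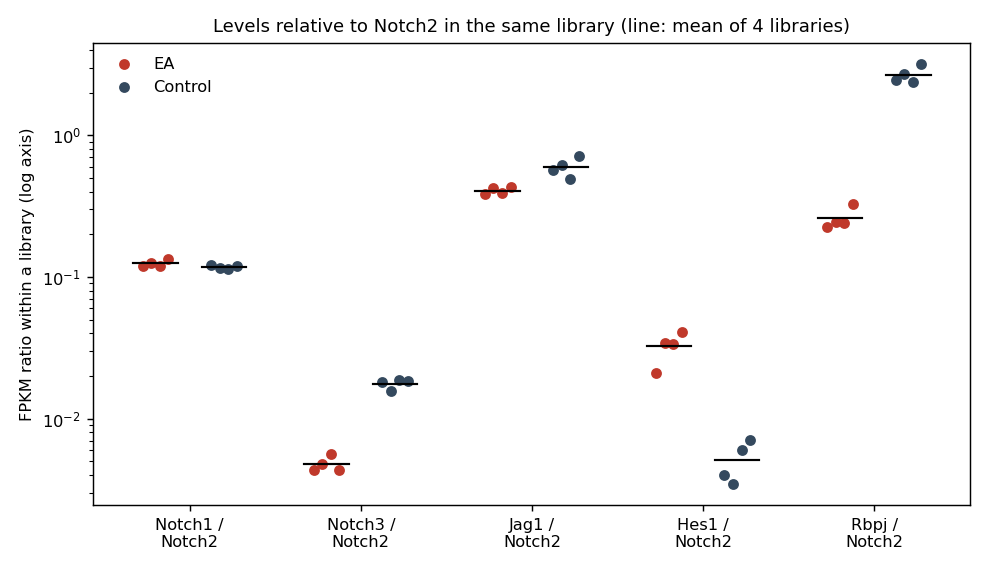
FPKM of 5 genes divided by that of Notch2 in the same library, on a log axis; each point is 1 of 4 EA or 4 Control libraries and each line a group mean. The Notch1 ratios overlap between groups, while those of Notch3, Jag1, Hes1 and Rbpj do not, with Hes1 above and the other 3 below in EA.

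Among the ligands, Jag1 rose under TMM scaling, Dll1 fell, and Jag2 was too scarce to test. Jag1 (ENSMUSG00000027276; chromosome 2, 136923376 to 136958564, minus strand) encodes Jagged1, a ligand that marrow stromal cells present. Its CPM was 122, 130, 132 and 126 in EA, against 94.1, 92.1, 79.6 and 108 in Control. All EA libraries were above all Control libraries, and the Control libraries were the more spread. Means were 127 ± 4.79 CPM in EA and 93.5 ± 11.7 in Control (SD, n = 4 each), a log2 fold change of 0.45 (SE 0.07; 1.36-fold; adjusted p = 2.3e-05, edgeR quasi-likelihood test). This call depended on the scaling: by library totals the log2 fold change was 0.09 (adjusted p = 0.288, edgeR). Set against Notch2 in the same library, Jag1 FPKM was 0.406 ± 0.0223 of it in EA and 0.599 ± 0.0935 in Control, with no overlap.

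Dll1 (ENSMUSG00000014773; chromosome 17, 15587616 to 15597134, minus strand), a Delta-like ligand, had 4, 2, 2 and 3 reads in EA and 14, 10, 15 and 11 reads in Control. No EA library reached the lowest Control library, on a base of 11 reads in EA and 50 in Control. In CPM this was 0.203 ± 0.0867 in EA and 0.709 ± 0.135 in Control (SD, n = 4 each), a log2 fold change of -1.79 (SE 0.49; 3.47-fold lower in EA; adjusted p = 0.0028, edgeR). The scaled reads were 3.57-fold lower in EA, with an exact 95% interval of 1.84 to 7.62 that covers counting error alone. Dll1 passed the filter on low counts through its Control libraries alone.

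Jag2 (ENSMUSG00000002799; chromosome 12, 112871439 to 112893396, minus strand), the other Jagged ligand, had 0, 2, 8 and 2 reads in EA and 8, 13, 5 and 4 in Control. The groups overlapped. The scaled reads were 1.97-fold lower in EA with an interval of 0.978 to 4.22 that includes no difference. Over the 5 Jagged and Delta-like ligands, Jag1 made up 98.8% ± 0.308 of summed FPKM in EA and 97.9% ± 0.531 in Control (SD, n = 4 each), and the sum was 19.5 ± 0.727 in EA and 18.6 ± 2.14 in Control.

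**Figure D2:**
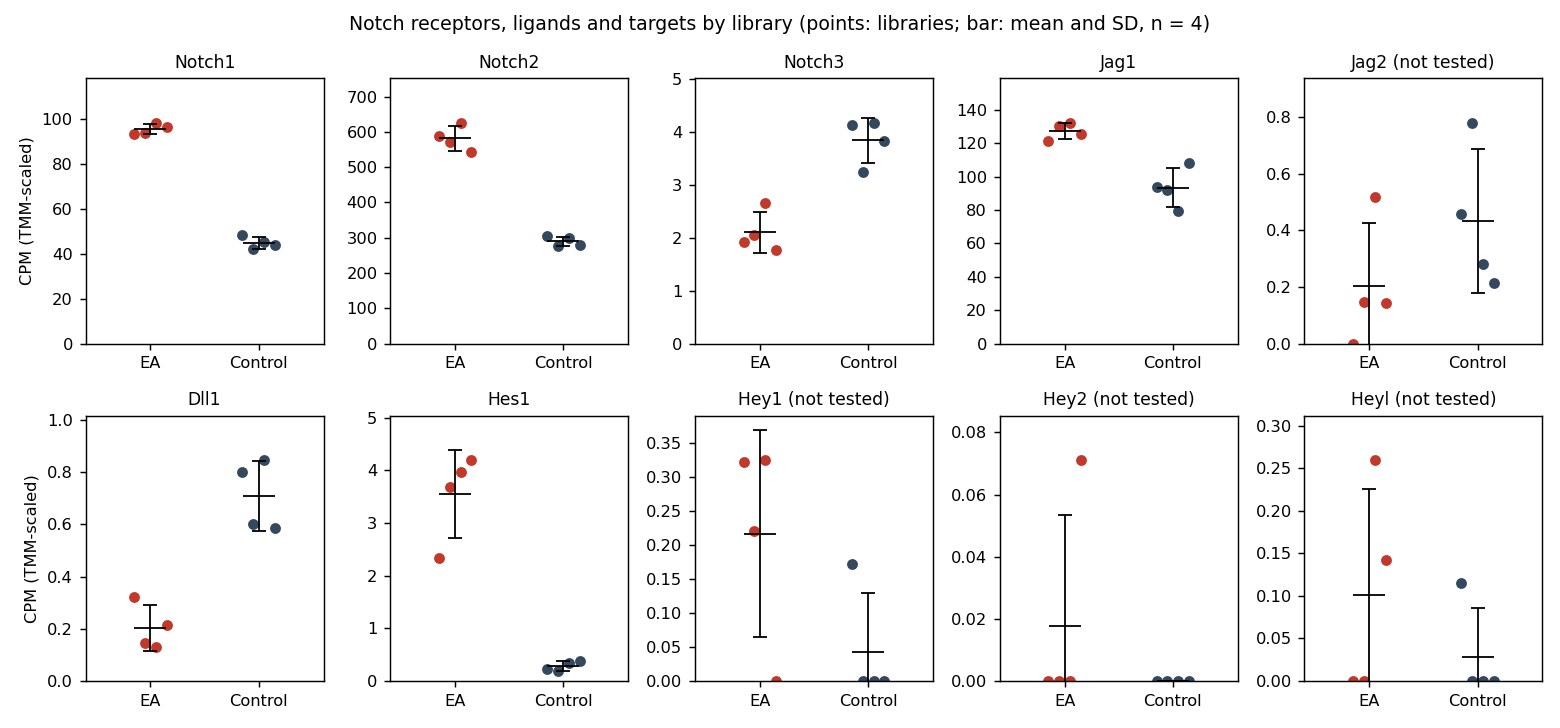
TMM-scaled CPM of the 10 genes in each library, with EA left and Control right; points are libraries and bars the mean and SD of 4, on axes that start at 0 and differ between panels. Notch1, Notch2, Jag1 and Hes1 are higher and Notch3 and Dll1 lower in EA without overlap under this scaling, and Jag2, Hey1, Hey2 and Heyl are near 0 in both groups.

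Of the target genes, Hes1 alone had enough reads to be tested, and it had the largest change of the 10 genes. Hes1 (ENSMUSG00000022528; chromosome 16, 29883202 to 29886614, plus strand) encodes a basic helix-loop-helix repressor that is a direct target of Notch in many tissues and is also induced by other pathways. It had 29, 50, 61 and 59 reads in EA and 4, 3, 6 and 7 in Control. In CPM this was 2.33, 3.68, 3.96 and 4.20 in EA, against 0.229, 0.180, 0.339 and 0.373 in Control. The lowest EA library, replicate 1, was still far above every Control library. Means were 3.54 ± 0.835 CPM in EA and 0.280 ± 0.0906 in Control (SD, n = 4 each). The log2 fold change was 3.62 (SE 0.33; 12.3-fold; adjusted p = 6.4e-09, edgeR quasi-likelihood test), and 83 of the 11777 tested genes rose more. The scaled reads, 199 in EA and 20 in Control, were 12.7-fold higher in EA with an exact 95% interval of 7.97 to 21.2 for counting error. Hes1 passed the filter through its EA libraries alone. By library totals its log2 fold change was 3.26, and relative to Notch2 its FPKM was 6.31-fold higher in EA. The level stayed low beside the receptors, at 1.53 ± 0.361 FPKM in EA and 0.156 ± 0.0504 in Control.

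The HEY genes, which encode related repressors, were scarce in every library. Hey1 (ENSMUSG00000040289; chromosome 3, 8728419 to 8732316, minus strand) had 4, 3, 5 and 0 reads in EA and 3, 0, 0 and 0 in Control. The EA library without a read lies below the Control library with 3, so the groups overlapped. The scaled ratio was 5.09 in favour of EA with a counting interval of 1.37 to 28.1. Heyl (ENSMUSG00000032744; chromosome 4, 123127349 to 123143668, plus strand) had 0, 0, 4 and 2 reads in EA and 2, 0, 0 and 0 in Control, and the scaled ratio of 3.81 had an interval of 0.682 to 38.6. Hey2 (ENSMUSG00000019789; chromosome 10, 30708355 to 30718797, minus strand) had 1 read in EA and 0 in Control, which allows up to 0.043 CPM in Control, and no fold is given. Fitted without the filter on low counts, none of Jag2, Hey1, Hey2 and Heyl was called (adjusted p = 0.257, 0.1005, 0.406 and 0.311, edgeR). At this depth a change of these genes is left undecided. The Hey1 interval lies above equal levels, but it covers counting error alone.

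In EA the FPKM order was Notch2, Jag1, Notch1, Hes1 and Notch3, each above the next in every library, followed by Hey1, Dll1, Jag2, Heyl and Hey2, whose neighbours overlapped. In Control the order was Notch2, Jag1, Notch1, Notch3 and Dll1, each above the next in every library, and then Hes1, Jag2, Hey1, Heyl and Hey2, again with neighbours that overlapped. Dll1 and Hes1 also overlapped in Control. Hes1 thus stood above Notch3 in every EA library and below it in every Control library.

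Of the 10 genes, 6 were tested and all of those 6 were called, 4 higher and 2 lower in EA, with groups that did not overlap in any of them. Among all tested genes, 67.2% were called and 60.6% had groups without overlap. Dll1 and Hes1 could enter the test through 1 group alone, so nothing is read from the counts of the members against these shares. The plot of library scalings shows the same genes under 4 scalings.

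**Figure D3:**
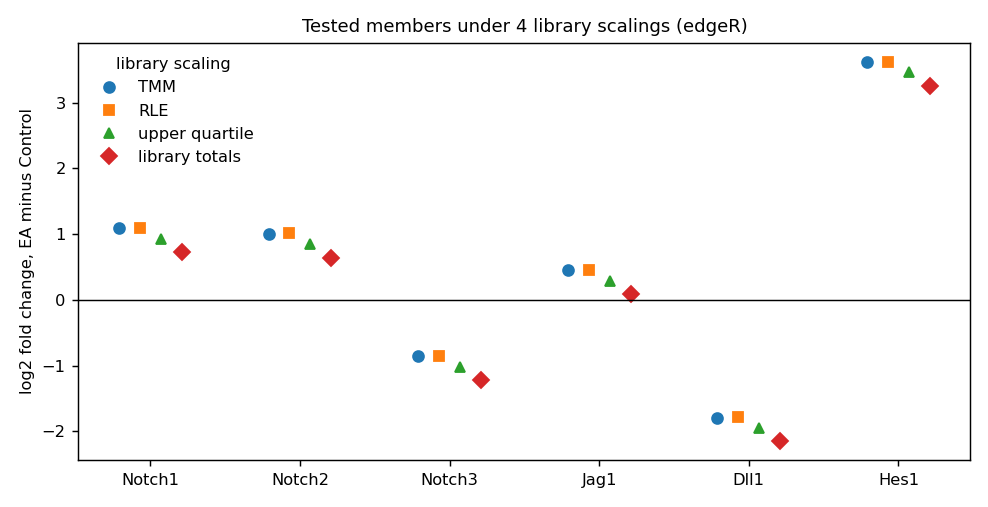
Log2 fold change of EA over Control for the 6 tested genes under TMM, RLE, upper-quartile and library-total scaling in edgeR. The direction is the same under all 4, but Jag1 falls to 0.09 by library totals and is then not called.

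Reads of overlapping genes may be shared, as the strand setting of the count is not stated in the labels. In the GENCODE annotation of GRCm38, exons of Notch1 share 1068 bases (7.50% of its exon bases) with the opposite-strand gene 0610009E02Rik and 414 bases (2.91%) with Gm13568. Dll1 shares 867 bases (20.5%) with the opposite-strand lincRNA A930024N18Rik, Notch3 488 bases (6.03%) with the antisense gene Gm17276, and Notch2 541 bases (5.02%) with Gm42820 on its own strand. Reads of these pairs cannot be told apart here. Jag1, Jag2, Hes1, Hey1, Hey2 and Heyl shared no exon bases with another gene.

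The remaining Notch pathway was described with 52 further genes in 7 lists by role. Of these, 40 were tested and 31 called (77.5%), 17 higher and 14 lower in EA, with a median log2 fold change of 0.01, against 67.2% called and a median of -0.02 over all tested genes. Groups did not overlap for 27 of the 40, against 60.6% of all genes. By library totals 11 were higher and 25 lower. The counts called in each list below stand beside the same 67.2%, and nothing is read from them.

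Of the other receptors and ligands, 2 of 6 were tested and both were called higher, where 33.1% of all tested genes were. Notch4, the receptor best known from endothelium, had 2.81, 2.35, 2.79 and 2.28 CPM in EA and 1.38, 0.962, 0.621 and 0.906 in Control, a log2 fold change of 1.40 (SE 0.28; adjusted p = 0.00015, edgeR). It stayed at 0.517% of receptor FPKM in EA and 0.391% in Control, and the ranges overlapped. Dlk2, a Delta-like membrane protein that lacks the domain used to bind Notch in canonical ligands, rose by 1.68 (SE 0.14; adjusted p = 9.2e-10, edgeR). Dll3, Dll4, Dlk1 and Dner had too few reads to be tested.

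Genes for folding and sugar modification of the receptors split. Of 6, 5 were tested, 2 rose and 2 fell. Lfng, or Lunatic fringe, which extends O-fucose on Notch and alters its response to Jagged and Delta-like ligands, had 66.3, 71.1, 76.3 and 97.0 CPM in EA and 5.22, 5.17, 4.52 and 2.98 in Control. Every EA library was far above every Control library. The log2 fold change was 4.12 (SE 0.16; 17.4-fold; adjusted p = 1.7e-11, edgeR), and 53 of all tested genes rose more. Its relative Rfng, or Radical fringe, was lower by a small margin, with 29.1 ± 2.76 CPM in EA and 34.5 ± 3.45 in Control (SD, n = 4 each) and a log2 fold change of -0.25 (SE 0.09; adjusted p = 0.0207, edgeR). The Rfng call was lost without Control replicate 1 or 2 or without EA replicate 2 or 4, where it ranged from -0.23 to -0.19. In FPKM the ratio of Lfng to Rfng was 2.08 to 3.48 in EA and 0.0999 to 0.145 in Control. Lfng gave 72.2% ± 4.27 of fringe FPKM in EA and 11.3% ± 1.55 in Control. Furin, a protease that cleaves the Notch precursor, rose 3.29-fold, and Pofut1, which adds O-fucose to the receptor, fell by 0.35 on the log2 scale. Mfng was not tested.

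All 4 ubiquitin ligase genes that act on ligands were called, where 67.2% of all tested genes were. Mib1, whose product drives ligand uptake in the sending cell, rose by 0.85 (SE 0.07), with 136 ± 5.63 CPM in EA and 75.2 ± 7.29 in Control (SD, n = 4 each). Its relative Mib2 fell by 1.27 on the log2 scale, Neurl1a fell by 0.56 and Neurl1b fell by 2.43, the last with 0.921 ± 0.442 CPM in EA and 4.99 ± 0.514 in Control. The Mib2 to Mib1 FPKM ratio was 0.218 to 0.277 in EA and 0.919 to 1.21 in Control.

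Of 9 genes for receptor cleavage, 8 were tested, with 4 higher and 2 lower in EA under TMM scaling. Adam10, the main protease of ligand-induced cleavage, was higher by 0.35 on the log2 scale, and the gamma-secretase subunit genes Psenen and Ncstn by 0.30 and 0.20. These 3 calls depended on the scaling. By library totals Adam10 and Psenen had log2 fold changes of -0.02 and -0.06 without a call, and Ncstn was called lower, at -0.17 (adjusted p = 0.0141, edgeR). With upper-quartile scaling Ncstn and Psenen were not called (adjusted p = 0.576 and 0.154). Adam17, a related protease, fell by 0.71, with 52.0 ± 2.49 CPM in EA and 84.9 ± 2.15 in Control, and Psen2, a catalytic presenilin, fell by 0.86 (SD, n = 4 each). Adam17 and Psen2 fell further by library totals. Aph1c was not tested, and reads of Aph1b and Aph1c, near-identical copies, are uncertain.

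Of 13 genes for the nuclear complex, coactivators and corepressors, all were tested, 5 rose and 4 fell under TMM scaling. Small rises in this list can change sign by library totals. Rbpj, the DNA-binding partner of all Notch intracellular domains, had 158, 164, 178 and 210 CPM in EA and 885, 889, 836 and 1055 in Control. The groups were far apart. Its log2 fold change was -2.37 (SE 0.09; 5.16-fold lower in EA; adjusted p = 5.1e-12, edgeR), and 126 of all tested genes fell more. Per length, Rbpj exceeded Notch2 in every Control library, with FPKM ratios of 2.36 to 3.20, and lay below it in every EA library, with ratios of 0.227 to 0.327. The gene-name table lists Rbpj pseudogenes, and reads shared with such copies make this level uncertain. The Mastermind genes Maml1 and Maml2 had log2 fold changes of -0.51 and -0.21, both called. Of the corepressor genes, Spen stood at 228 ± 7.24 CPM in EA and 88.7 ± 4.17 in Control, and Tle1 at 71.8 ± 7.38 in EA and 21.5 ± 1.73 in Control (SD, n = 4 each). Their log2 fold changes were 1.36 and 1.74, and were positive under every scaling tried.

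Among 9 negative regulators, 7 were tested, 3 rose and 3 fell. Numbl, a relative of the Notch inhibitor Numb, rose by 2.14 (SE 0.08), with 175 ± 5.10 CPM in EA and 39.8 ± 5.33 in Control. Fbxw7, the ubiquitin ligase subunit that marks the Notch intracellular domain for degradation, rose by 1.99 (SE 0.09), with 123 ± 17.1 CPM in EA and 30.9 ± 1.25 in Control (SD, n = 4 each). Dtx2, a Deltex ligase, was higher by 0.50, and by 0.14 without a call by library totals. Dtx4 fell by 0.60, and Itch, a ligase with Notch among its substrates, fell by 0.22. Numb itself was lower by a small margin, with a log2 fold change of -0.27 and an adjusted p of 0.0315 (edgeR). That call was lost without Control replicate 1, 2 or 3 or EA replicate 1 or 2, with values of -0.28 to -0.20. Dtx1 and Nrarp were not tested, and Nrarp had 0 reads in every library. Of the other HES genes, Hes6 alone was tested, with 4.86 ± 1.02 CPM in EA and 5.18 ± 1.18 in Control (adjusted p = 0.650, edgeR; by library totals it was called lower, at -0.46 with an adjusted p of 0.0303), and Hes2, Hes3, Hes5 and Hes7 were not.

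**Figure D4:**
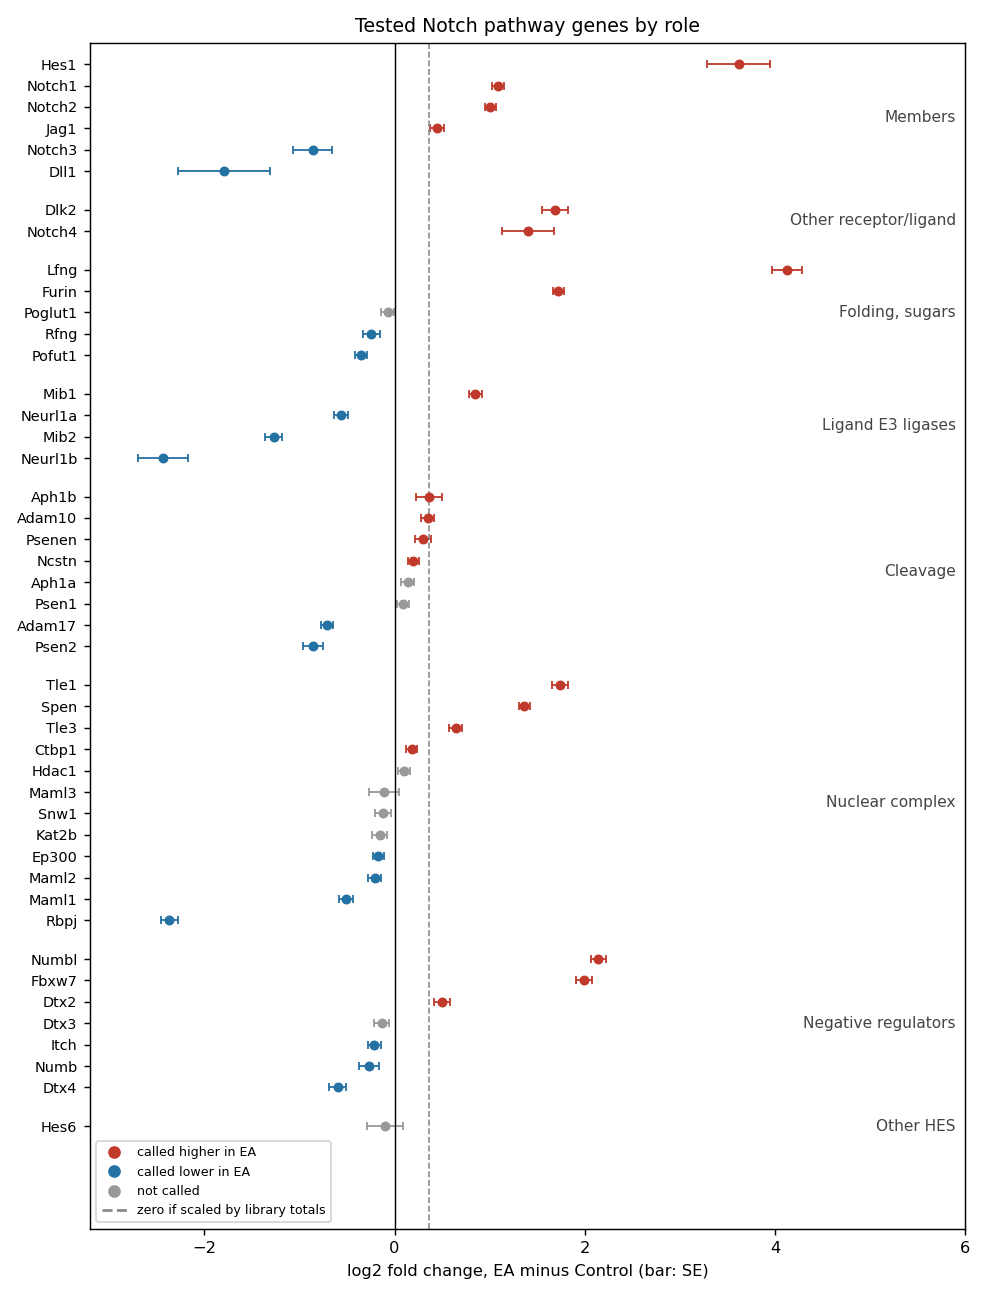
Log2 fold change of EA over Control with its SE for tested genes, grouped by role; colour gives the call under TMM scaling, and the dashed line marks where 0 would lie by library totals. Lfng and Hes1 lie farthest right and Neurl1b and Rbpj farthest left, and genes between 0 and the dashed line, Adam10, Psenen and Ncstn among them, change sign by library totals.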

How the data were processed

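The authors deposited a read count for each gene from poly(A) RNA sequencing; cutadapt 1.15, HISAT2 2.0.5 and build GRCm39 are named per the submitters' processing notes, while the counting tool, strandedness and gene annotation are not stated there. The deposited FPKM values equal count over gene length and library total, checked on 175192 values.

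Counts were tested in R 4.3.3 with edgeR 4.0.16: default count filter by group, TMM factors, a robust quasi-likelihood F test with group as the single term, and Benjamini-Hochberg adjustment over 11777 genes. Each SE was obtained as the absolute log2 fold change over the root of its F statistic. The biological coefficient of variation was 7.78%. CPM means use TMM scaling, and summed markers use library totals. Read ratios use TMM-scaled library sizes, with exact binomial 95% intervals; these and the floor of 3 reads cover counting error only. No libraries were duplicates: chi-square per degree of freedom between libraries of a group was at least 2.82.

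The members, pathway lists, markers and tests were chosen with earlier results of these data known. Named were all members and, per pathway list, up to 3 called rising and 3 called falling genes by p, or the 2 most expressed where none was called; untested genes are named without values, and 1 gene that this rule selects is not reported here. Alternatives were RLE, upper-quartile and total scaling, omission of the count filter, a filter at CPM above 1 in all 8 libraries, DESeq2 1.42.0, limma 3.58.1 with voom or on log2 FPKM with pseudocounts of 1 and 0.1, a replicate block and leaving out each library.

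On simulated counts with 200 changed genes among 11791, edgeR recovered 53 of 57 genes changed 1.5-fold, all 72 changed 2-fold and all 71 changed 4-fold, with 11 false calls of 207. The changed genes were drawn from better-read genes, without ones as scarce as Dll1, in random directions and with the same dispersion for all. In the data 67.2% of tested genes were called and TMM factors differed by group, so these rates do not carry over. Motifs were searched in Python 3.11.15, and figures drawn with matplotlib 3.10.9. Protein comparisons were not made.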

Additional observations from a re-analysis of the deposited data

Results flagged for a closer look

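Of 73 groups of 4 libraries examined, 7 had a library whose gap to the nearest other exceeded the 95% critical value of Dixon's test, which chance gives in about 1 in 20 groups. That rate does not hold where 1 library alone has reads, since the ratio is then fixed at 1, as for Hey1, Hey2 and Heyl. Among the scarce target genes, Hey2 had 0.0711 CPM (1 read) in EA library 4 and 0 in the other EA libraries. Hey1 had 0.172 CPM (3 reads) and Heyl 0.115 CPM (2 reads) in Control library 1, with 0 in the other Control libraries.

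EA library 4 was the low library for 2 pathway genes. Adam10, a protease of receptor cleavage, had 156 CPM there and 175 to 178 in the other EA libraries. Itch, a ubiquitin ligase, had 79.2 CPM there and 88.5 to 90.4 in the others. EA library 1 had 313 CPM of Furin against 305.5 to 305.8 in the other EA libraries. Control library 3 had 6.95 CPM of Hes6 against 4.53 to 4.69 in the other Control libraries.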

How the results depend on the processing

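Across RLE, upper-quartile and total scaling, DESeq2, limma voom, limma on log2 FPKM, other filters, the replicate block and leaving out each library, the log2 fold changes of Notch1, Notch2, Notch3, Dll1 and Hes1 kept their direction and call wherever they could be fitted. Leaving out 1 library gave 1.07 to 1.13 for Notch1, 0.97 to 1.04 for Notch2, -0.998 to -0.780 for Notch3, 0.38 to 0.53 for Jag1, -2.07 to -1.62 for Dll1 and 3.47 to 3.79 for Hes1. Jag1 was not called at 0.0858 by library totals, or at 0.0878, 0.0924 and 0.0878 with log2(FPKM + 1), log2(FPKM + 0.1) and log2(FPKM + 1) without a filter. In that order of settings, 1940, 1924, 1922 and 2012 genes were higher and 7196, 7170, 7179 and 7365 lower in EA, and the other pathway genes had 11 higher under the first 3 and 25, 25, 24 and 24 lower. All 4 settings scale by library totals, which shifts every gene down. Under them Adam10 reversed to -0.0152, -0.0134, -0.0138 and -0.0134, Ncstn to -0.1662, -0.1613, -0.1651 and -0.1613 (called lower in all 4, adjusted p = 0.0141 to 0.0261), and Psenen to -0.0641, -0.0624, -0.0655 and -0.0624; the reversed values of Adam10 and Psenen were not called. With a CPM above 1 in all 8 libraries, 1 member was lower, since Dll1 was removed, and 3 were higher, since Hes1 was removed. Hes6 ran from -0.2437 to 0.0804 with 1 library left out, the highest without Control replicate 3. That library had 6.95 CPM of Hes6 against 4.53 to 4.69 in the other Control libraries. Why it was high was not tested. Hes6 was called lower by library totals, log2(FPKM + 1) and log2(FPKM + 0.1), at -0.463, -0.331 and -0.436 (adjusted p = 0.0303, 0.0280 and 0.0253). With pseudocounts, the changes of low genes are understated: Hes1 came to 1.12 and Dll1 to -0.19 at the least.

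Deviations from the group mean correlated at r = -0.0215 to 0.0266 between libraries of the same replicate number, and at r = -0.105 to 0.0972 between those of different number. Pairing by number was thus not detected, which cannot exclude it. With the replicate block all 6 tested members were called and 3834 genes were higher and 3960 lower. Depth limits Jag2, Hey1, Hey2 and Heyl, with at most 30 reads in a group.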

Other observations

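The deposited table also assigns 60 genes to the KEGG Notch signaling pathway, a list chosen after its values were seen. Of these, 47 were tested, 19 were higher and 14 lower in EA (70.2% called, against 67.2% of all tested genes), with a median log2 fold change of 0.09 against -0.02 over all tested genes; the list holds all 10 members and 33 of the 52 further pathway genes.

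Within a library, the FPKM ratio of Numbl to Numb was 5.43 to 6.41 in EA and 0.981 to 1.27 in Control, a difference that does not depend on library scaling. The Rbpj promoter, in the RefSeq window that starts farthest upstream, held 2 matches of the core motif TGGGAA, at 149 and 65 bases before the start, a motif found in 25.6% of all windows.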
